A study of Mus musculus with 12 samples.

Results

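The genes described here encode the contractile apparatus of skeletal muscle and the proteins that supply it with calcium and energy. They were taken from a list of 47 gene symbols, and a gene was measured through the probe sets that carry that symbol alone. Of the 47 genes, 46 were measured, through 73 probe sets, among 18193 genes in all; Xirp2, an actin-binding protein of the Z-disc, had no such probe set and has no value here. The arrays hold dermis of newborn C57Bl6/CBA F1 mice in 4 groups of 3 arrays, labelled P5 tail, P5 back, P1 tail and P1 back, where P1 and P5 are 1 day and 5 days after birth. No group carried a mutation or received a treatment. RNA came from triplicate mice according to the study. Each array was therefore taken as 1 mouse, and p-values measure the spread between these arrays. Tail dermis was freed from the epidermis in EDTA and back dermis in dispase and trypsin, and the dermis was then digested to a cell suspension, so that body site and separating solution cannot be told apart. The protocol is written for P1 only.

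Directions are those of the array labels, and for fat genes they oppose those of the study. Adipoq, the fat hormone adiponectin, was at 2.72, 1.91 and 2.28 in the arrays labelled P1 tail, against -3.26, -2.75 and -2.78 in those labelled P1 back, whereas the study describes more fat metabolism in back dermis. Hoxd11, a posterior Hox gene, lay between -1.93 and -1.18 in the 6 arrays labelled tail, against 1.18 to 1.91 in the 6 labelled back. These genes were chosen after their values were seen. Hoxc8, another Hox gene, lay between 1.19 and 1.83 in the arrays labelled tail, against -1.51 to -1.19 in those labelled back. It was picked in the same way. Whether the tail and back labels are exchanged in the deposited record was not tested. The groups were not exchanged, and each is called by its label throughout. Site differences below are those of the labels, and the body site behind a label is not settled here.

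In striated muscle, myosin heavy and light chains form the thick filament, and actin with troponin and nebulin forms the thin filament. Z-disc proteins anchor the thin filaments, and the spring protein titin links the thick filament to the Z-disc. Fast and slow fibres use different genes for the same part, and newborn muscle still contains the embryonic myosin Myh3 and the perinatal myosin Myh8 before adult isoforms replace them. Beneath the fat of mouse back skin lies a thin sheet of striated muscle, the panniculus carnosus, while the tail contains muscles and tendons attached to its vertebrae. Values are log2 signals from which the median of the 12 arrays has been subtracted for each probe set, so 0 is a gene's middle array, 1 is a doubling, and no level of one gene can be set against that of another. In RNA of a whole tissue preparation, fewer muscle cells and less muscle RNA per cell cannot be told apart.

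The contractile genes moved over a wide range, and mostly together, from array to array. Across the 12 arrays a gene of this set spanned a median of 2.10 on the log2 scale, against 0.67 for all genes, and 24 of the 46 (52.2%) spanned more than 2, against 3.18% of all genes. The median of the 46 genes was -0.27, -0.43 and -0.07 in the arrays of P5 tail, and -0.31, -0.33 and 0.88 in those of P5 back. It was 1.09, 0.34 and 0.17 in P1 tail, and 0.15, -0.27 and 0.33 in P1 back. Replicate 4 of P1 tail and replicate 3 of P5 back thus stood above the other arrays of their groups, and 30 genes were highest in the first and 7 in the second. Each gene was set against the median of the others over the 12 arrays: the correlation exceeded 0.8 for 25 genes and 0.5 for 39, and none was below 0. This is a description, since the arrays share their group differences and the genes were listed for a shared tissue.

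**Figure D1:**
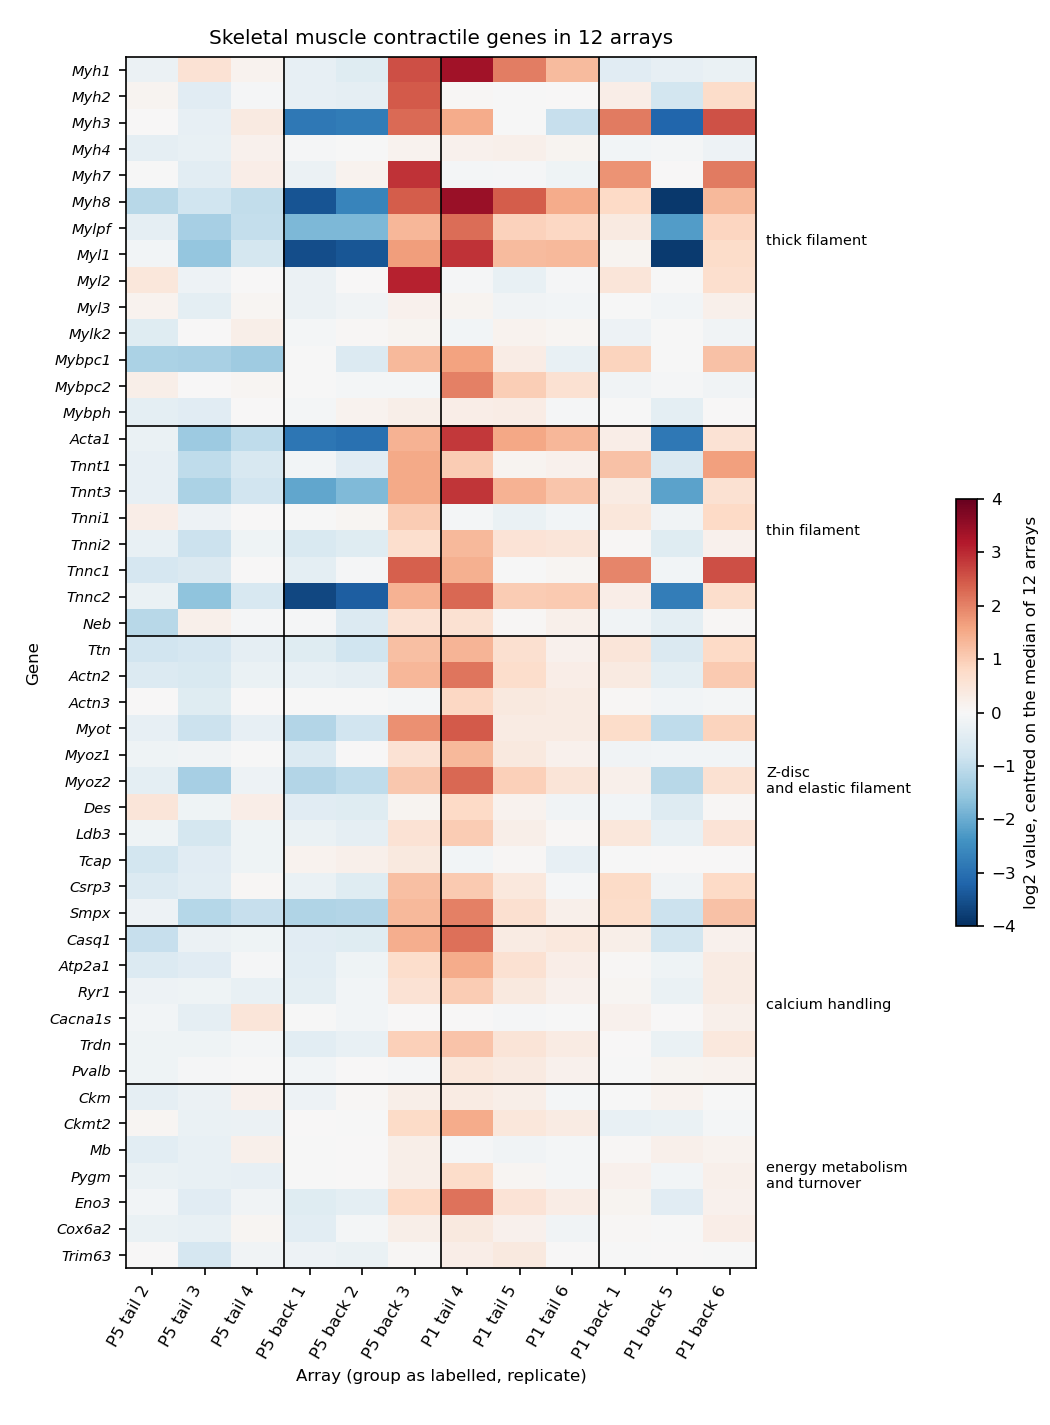
Centred log2 value of each of the 46 genes (rows, by part of the muscle apparatus) in each of the 12 arrays (columns, by labelled group and replicate); red is above and blue below the gene's median array. Replicate 4 of P1 tail and replicate 3 of P5 back are red for most genes, while Acta1, Myl1, Tnnc2 and Myh8 are deep blue in replicates 1 and 2 of P5 back and replicate 5 of P1 back.

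Skeletal actin and its close companions gave the widest swings. Acta1, the main actin of skeletal muscle, was at -0.26, -1.46 and -1.02 in P5 tail, -2.90, -2.98 and 1.40 in P5 back, 2.84, 1.54 and 1.32 in P1 tail, and 0.26, -2.85 and 0.57 in P1 back. All P1 tail arrays lay above all P1 back and all P5 tail arrays, whereas the back groups each held arrays far apart, with an SD of 2.51 at P5 and 1.89 at P1. Myl1, the fast alkali light chain, Mylpf, the fast regulatory light chain, and the fast troponins Tnnc2 (calcium-binding) and Tnnt3 (tropomyosin-binding) followed Acta1 with correlations of 0.991, 0.983, 0.986 and 0.989 over the 12 arrays.

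Among the heavy chains, 3 patterns were seen. Myh8 followed Acta1 (r = 0.974), at -1.12, -0.79 and -0.97 in P5 tail, -3.44, -2.64 and 2.41 in P5 back, 3.46, 2.44 and 1.48 in P1 tail, and 0.79, -3.85 and 1.29 in P1 back. Its range of 7.32 was the widest of the 46 genes. Myh3 was also lowest in replicates 1 and 2 of P5 back and replicate 5 of P1 back (-2.87, -2.79 and -3.17), but was highest in replicates 6 and 1 of P1 back (2.55 and 2.07) and in replicate 3 of P5 back (2.26).

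Myh1, the myosin of fast 2X fibres, was at -0.24, 0.56 and 0.13 in P5 tail, -0.33, -0.50 and 2.58 in P5 back, 3.35, 2.04 and 1.26 in P1 tail, and -0.44, -0.34 and -0.25 in P1 back. It was therefore high in all P1 tail arrays and in 1 array of P5 back, and all P1 back arrays lay within 0.2 of each other. Myh7, the slow myosin, was at -0.01, -0.42 and 0.27 in P5 tail, -0.25, 0.14 and 2.88 in P5 back, -0.09, -0.06 and -0.16 in P1 tail, and 1.80, 0.01 and 2.09 in P1 back. The slow myosin was thus high where replicates 1 and 6 of P1 back and replicate 3 of P5 back were read, and its 3 P1 tail arrays lay below all P1 back arrays. Myh2, of fast 2A fibres, correlated with the slow regulatory light chain Myl2 (r = 0.947). This value rests largely on replicate 3 of P5 back, where they reached 2.46 and 3.06. In the other arrays Myh2 lay between -0.735 and 0.745, and Myl2 between -0.285 and 0.678. Myh4, of fast 2B fibres, spanned 0.57 over all arrays.

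The heavy chain genes Myh1, Myh2, Myh3, Myh4 and Myh8 lie together on chromosome 11 and are near-identical in parts, so their probe sets may share signal. Of the 3 Myh1 probe sets, the pair that moved (ranges 5.85 and 5.70) carry the Affymetrix suffixes for alternative transcripts and for possible cross-hybridisation, and the third spanned 0.78. The Myh1 pattern may therefore include signal of a neighbouring gene. To show what the heavy chain genes and their companions share, windows of 250 bases are given for 7 of the 37 genes that had one. Each window precedes the start of transcription listed farthest downstream for the gene (RefSeq, GRCm38.p6), which can lie inside the gene. The 7 are 3 neighbouring myosins that behaved differently, and the actin, fast and slow genes on which the later comparisons turn. Capitals mark matches on either strand to the E-box letters CAGCTG and CAGGTG (bound by myogenic factors), to CATTCC (the MCAT box, bound by TEAD factors), to TATTTATAG (the core of a MEF2 site) and to the CArG box of serum response factor.
Myh1 (chr11:67199852-67200101, plus strand): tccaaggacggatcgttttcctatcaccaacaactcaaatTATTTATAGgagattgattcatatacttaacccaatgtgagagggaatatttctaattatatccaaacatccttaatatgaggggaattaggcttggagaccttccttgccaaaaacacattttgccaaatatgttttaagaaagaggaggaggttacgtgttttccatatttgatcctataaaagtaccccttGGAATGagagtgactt
Myh4 (chr11:67237562-67237811, plus strand): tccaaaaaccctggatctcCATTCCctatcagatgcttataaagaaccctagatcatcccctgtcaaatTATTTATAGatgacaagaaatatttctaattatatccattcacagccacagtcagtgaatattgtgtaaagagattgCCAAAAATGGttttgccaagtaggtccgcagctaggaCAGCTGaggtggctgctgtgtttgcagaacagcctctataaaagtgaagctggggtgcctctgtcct
Myh8 (chr11:67276874-67277123, plus strand): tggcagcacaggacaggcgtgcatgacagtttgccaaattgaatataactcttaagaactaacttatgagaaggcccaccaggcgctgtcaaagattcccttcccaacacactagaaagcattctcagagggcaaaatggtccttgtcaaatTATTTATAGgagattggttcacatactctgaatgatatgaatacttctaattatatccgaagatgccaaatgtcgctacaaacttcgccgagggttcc
Acta1 (chr8:123894776-123895025, minus strand): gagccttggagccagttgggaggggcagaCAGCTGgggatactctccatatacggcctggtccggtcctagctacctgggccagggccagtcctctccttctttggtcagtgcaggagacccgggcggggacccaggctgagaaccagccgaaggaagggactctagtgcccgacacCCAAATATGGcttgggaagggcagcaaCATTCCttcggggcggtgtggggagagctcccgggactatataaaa
Mybpc2 (chr7:44524670-44524919, minus strand): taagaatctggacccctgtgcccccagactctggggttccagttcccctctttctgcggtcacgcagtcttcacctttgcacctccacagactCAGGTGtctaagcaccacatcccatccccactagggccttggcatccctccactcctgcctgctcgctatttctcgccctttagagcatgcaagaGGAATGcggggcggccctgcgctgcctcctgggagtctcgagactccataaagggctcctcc
Myh7 (chr14:54994550-54994799, minus strand): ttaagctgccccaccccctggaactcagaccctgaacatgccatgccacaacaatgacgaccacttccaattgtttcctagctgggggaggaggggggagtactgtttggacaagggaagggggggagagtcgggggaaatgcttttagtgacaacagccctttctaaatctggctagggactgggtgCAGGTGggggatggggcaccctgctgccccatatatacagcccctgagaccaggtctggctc
Tnnc1 (chr14:31208062-31208311, plus strand): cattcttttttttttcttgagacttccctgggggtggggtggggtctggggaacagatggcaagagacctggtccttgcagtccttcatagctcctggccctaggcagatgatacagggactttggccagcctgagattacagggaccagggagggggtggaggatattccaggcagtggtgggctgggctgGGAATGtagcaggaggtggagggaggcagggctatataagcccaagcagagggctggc

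The core TATTTATAG stood at -210 in Myh1, -181 in Myh4 and -98 in Myh8, where -1 is the base before the start, and in Myh1 and Myh8 it lay within an identical run of 22 bases. These genes share it although Myh4 hardly varied and the other members of the trio varied by 3.85 (Myh1) and 7.32 (Myh8). Of the 37 windows, 4 held this core (10.8%), against 0.41% of 32851 windows of the same length for all genes. They were those of Myh1, Myh4, Myh8 and Trim63. The myosins among them are neighbouring, related genes, so these matches are not independent of each other. The 37 are 1 window a gene, whereas the 32851 are all windows listed, so the shares are not built alike. The letters CAGCTG were found in 18 of 37 (48.6%, against 13% of all windows), CAGGTG in 9 (24.3%, against 17.2%), CATTCC in 11 (29.7%, against 12.6%) and the CArG box in 4 (10.8%, against 1.47%). No matches overlapped in the printed windows. A match says only that the letters are present.

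The myosin-binding C proteins, which brace the thick filament, differed by isoform. The fast isoform Mybpc2 was at 0.24, 0.02 and 0.08 in P5 tail, -0.02, -0.09 and -0.09 in P5 back, 2.00, 0.98 and 0.61 in P1 tail, and -0.13, -0.05 and -0.15 in P1 back. Only P1 tail stood out, and replicate 3 of P5 back, high for most muscle genes, was not raised. The slow isoform Mybpc1 was at -1.26, -1.31 and -1.41 in P5 tail, below every array of the other groups, the lowest of which was -0.56.

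The slow thin filament genes also had their own order of arrays. Tnnc1, the slow and cardiac troponin C, was at -0.68, -0.56 and 0.01 in P5 tail, -0.40, -0.04 and 2.41 in P5 back, 1.41, -0.01 and 0.07 in P1 tail, and 1.95, -0.11 and 2.59 in P1 back. Replicates 1 and 6 of P1 back and replicate 3 of P5 back were high for Tnnc1, as they were for Tnnt1, the slow troponin T (1.17, 1.64 and 1.53), and for Tnni1, the slow inhibitory troponin (0.44, 0.79 and 1.00). Replicate 4 of P1 tail was also high for Tnnc1 and Tnnt1 (1.41 and 1.02), but not for Tnni1 (-0.09). Tnni2, the fast inhibitory troponin, was instead highest in replicate 4 of P1 tail at 1.30.

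**Figure D2:**
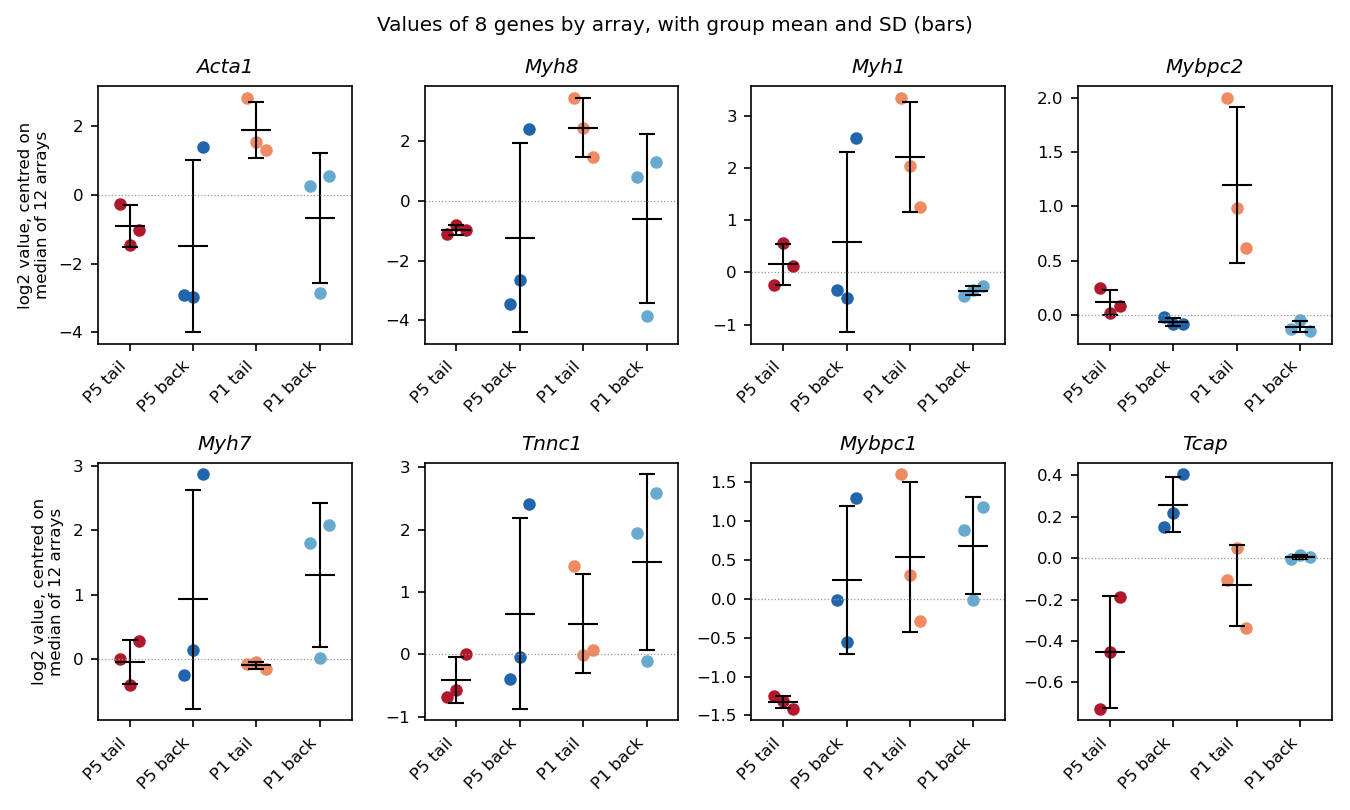
Centred log2 values of Acta1, Myh8, Myh1, Mybpc2, Myh7, Tnnc1, Mybpc1 and Tcap (points, 3 arrays a group) with group mean and SD (bars) for P5 tail, P5 back, P1 tail and P1 back as labelled. Myh1 and Mybpc2 are raised in P1 tail, Myh7 and Tnnc1 are raised in 2 of 3 P1 back arrays and 1 P5 back array, Tnnc1 also in 1 P1 tail array (1.41), and Mybpc1 and Tcap have their lowest means in P5 tail.

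At P1, 33 of 46 genes were higher in arrays labelled tail than in arrays labelled back, and Mybpc2 alone passed the test. Mybpc2 was 2.48-fold higher in P1 tail (1.20 ± 0.72) than in P1 back (-0.11 ± 0.05; SD, n = 3 each), a log2 difference of 1.31 (SE 0.25, limma adjusted p = 0.00935). It was 1 of 46 genes called, against 3.97% of all genes. Myh1 was 5.92-fold higher in P1 tail, with an adjusted p of 0.0565, and was called when replicate 3 of P5 back was left out (2.57, adjusted p = 0.00367). This size is a mean over the Myh1 probe sets, and it comes from the pair with suffixes. The probe set without a suffix overlapped between the sites, at 0.08, 0.29 and -0.20 in P1 tail and 0.06, 0.02 and -0.24 in P1 back. The P5 arrays enter the comparison at P1 only through the shared estimate of the spread. With the arrays of P1 alone the adjusted p of Mybpc2 was 0.0573, and the gene called was Myh1 (2.57, SE 0.45, adjusted p = 0.0225).

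By size, 11 genes were at least 2-fold higher and 1 was at least 2-fold lower in P1 tail than in P1 back, which is 26.1% of the 46 against 1.88% of all genes. The largest differences were those of Myh8 (8.27-fold, log2 3.05, SE 1.42), Myl1 (7.06-fold), Acta1 (5.96-fold), Tnnt3 (4.52-fold) and Tnnc2 (4.17-fold), none of which passed the test, with adjusted p-values from 0.264 to 0.463. Their standard errors of up to 1.42 follow the spread within the back groups, while the median standard error was 0.33 for these genes and 0.14 for all genes. For 17 genes all P1 tail arrays lay above all P1 back arrays (12.6% of all genes did so), and for 3 genes, Myh7, Myl2 and Mb (myoglobin), all lay below (17.6% of all genes).

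Most fast and most slow genes differed in opposite directions at P1. Of 14 fast genes, 13 were higher in P1 tail, with a median difference of 0.98, and Myh2 was the exception at -0.07. Of 9 slow genes, 8 were lower, with a median of -0.30, and Myoz2, a calcineurin-binding Z-disc protein, was the exception at 1.36. No slow gene was called, and Csrp3 (-0.01) and Myl3 (-0.07) hardly differed. Of 21 genes assigned to no fibre type, 18 were higher in P1 tail, with a median of 0.45. Higher values were thus not particular to fast genes. The slow myosin Myh7 differed by -1.40 (2.64-fold lower in P1 tail, SE 0.68, adjusted p = 0.374). The median over the 46 genes was 0.45, against -0.04 over all genes.

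At P5, the gene called between arrays labelled tail and back was Tcap, telethonin, which caps titin at the Z-disc. Tcap was at -0.73, -0.45 and -0.19 in P5 tail, against 0.15, 0.22 and 0.41 in P5 back, with no overlap. The log2 difference of -0.71 (1.64-fold lower, SE 0.14) had a limma adjusted p of 0.00872, and this was 1 of 46 genes, against 6.91% of all genes. Without both replicate 4 of P1 tail and replicate 3 of P5 back, the adjusted p of Tcap was 0.0578. Tcap was read by a single probe set, which carries the suffix for several transcripts of 1 gene. Mybpc1 differed by -1.57 (2.97-fold lower in P5 tail, SE 0.49, adjusted p = 0.0825).

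For most contractile genes the P5 arrays of the sites overlapped. Lower values in every P5 tail array were found for 3 genes, Mybpc1, Tcap and Pygm (muscle glycogen phosphorylase), against 9.58% of all genes, and higher values in every P5 tail array for Mybpc2 alone, against 11% of all genes. A 2-fold difference was reached by 4 genes (8.7%, against 2.38% of all genes), Myh3 and Tnnc2 being higher and Mybpc1 and Tnnc1 lower in P5 tail. Without replicate 3 of P5 back this number was 7, of which 6 were higher in P5 tail. Of the 14 fast genes, 11 were lower in P5 tail, with a median difference of -0.12, and of the 9 slow genes 8 were lower, with a median of -0.86. The median difference over the 46 genes was -0.26. These directions depend on replicate 3 of P5 back. The median of the fast genes was 1.01 there, against -0.43 and -0.42 in replicates 1 and 2 and -0.246, -0.441 and -0.045 in P5 tail. That of the slow genes was 1.30, against -0.24 and -0.14, and -0.34, -0.42 and 0.02 in P5 tail.

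Between P5 and P1 in arrays labelled tail, the contractile genes were lower at P5, and 42 of 46 had a negative difference. The genes called were Mybpc1 (-1.87, SE 0.49, 3.66-fold lower, limma adjusted p = 0.0462), Tnni2 (-1.24, adjusted p = 0.048), Mybpc2 (-1.08, adjusted p = 0.0253), Actn3 (-0.65, adjusted p = 0.0279), the actin-crosslinking actinin of fast fibres, and Pvalb (-0.40, adjusted p = 0.038), the calcium buffer parvalbumin. These 5 of 46 stand against 5.3% of all genes. Without replicate 4 of P1 tail, Mybpc2 was the single gene called, without replicate 2 or 3 of P5 tail or replicate 5 of P1 tail there were 2, and with arrays weighted by their quality none was. A fit of the tail arrays alone called 7 genes, all lower at P5: Myh8 (-3.42, SE 0.40, adjusted p = 0.00561), Acta1 (-2.81), Myl1 (-2.60), Tnnt3 (-2.56), Tnnc2 (-2.31), Mylpf (-2.21) and Tnni2 (-1.24). In that fit Mybpc1, Mybpc2, Actn3 and Pvalb missed the threshold, with adjusted p-values of 0.0523, 0.145, 0.178 and 0.245.

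Many genes outside these calls also differed with age in the tail. Values at P5 below every P1 array were found for 27 of 46 genes, against 8.34% of all genes, and values above every P1 array for 0, against 11.1% of all genes. Values at least 2-fold lower at P5 were seen for 19 genes (41.3%, against 1.92% of all genes with a 2-fold difference), among them Myh8 (10.7-fold), Acta1 (7.02-fold), Myl1 (6.07-fold), Tnnt3 (5.91-fold) and Myh1 (4.19-fold), whose adjusted p-values in the fit of all arrays lay between 0.104 and 0.285. The Z-disc genes Myoz2 (3.75-fold), Smpx (3.26-fold), Myot (2.91-fold) and Actn2 (2.83-fold) and the calcium store genes Casq1 (2.67-fold) and Atp2a1 (2.18-fold) were likewise lower in P5 tail, with adjusted p-values from 0.0612 to 0.274. Slow Myh7, Myl2 and Tnni1 did not share the direction, at 0.05, 0.22 and 0.19. Without replicate 4 of P1 tail, 10 genes reached a 2-fold difference.

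**Figure D3:**
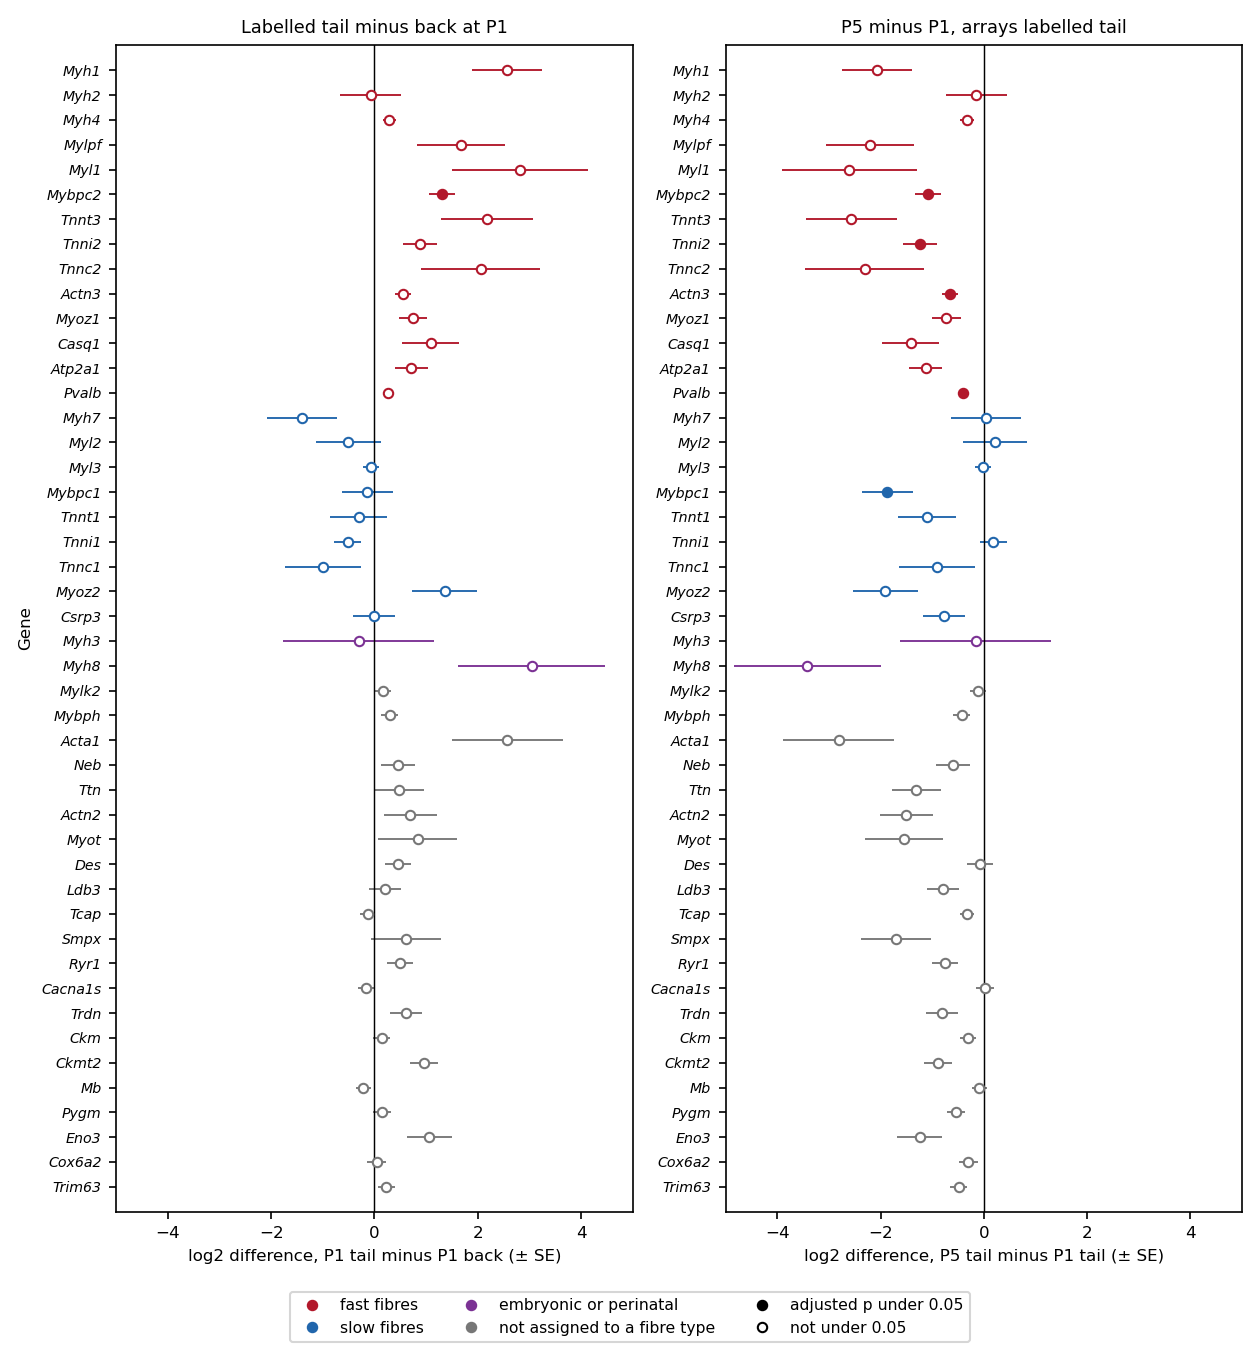
Log2 difference with its standard error for each of the 46 genes, P1 tail minus P1 back (left) and P5 tail minus P1 tail (right), coloured by fibre type; filled points passed the adjusted threshold. Fast genes lie mostly to the right in the left panel and to the left in the right panel, as do most genes assigned to no fibre type. Myh8, Myl1 and Acta1 combine the largest differences with wide errors.

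Between P5 and P1 in arrays labelled back, none of the 46 genes was called, against 4.25% of all genes, and none had an unadjusted p under 0.05 in limma. Each of the back groups held arrays with high and with low values of Acta1 and Myh8, and the median difference was -0.09. Values above every P1 array were found for 3 genes at P5, Myh4, Tcap and Ckmt2 (mitochondrial creatine kinase), against 14.4% of all genes, and values below every P1 array for 0, against 13.6% of all genes. A 2-fold difference was seen for Myh3 (3.07-fold lower) and Tnnc2 (2.4-fold lower), which is 4.35%, against 2.16% of all genes. This count rested on single arrays: without replicate 3 of P5 back it was 13.

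Taking both ages together, Mybpc2 was higher in arrays labelled tail (0.74, SE 0.18, adjusted p = 0.0211) and Tcap was lower (-0.42, SE 0.10, adjusted p = 0.0205), which is 2 of 46 genes against 7.39% of all genes. Mybpc2 missed the threshold without replicate 2 or 3 of P5 back or replicate 1 or 6 of P1 back (adjusted p = 0.0507, 0.0503, 0.0502 and 0.0524), and Tcap without replicate 3 of P5 back, 6 of P1 tail or 6 of P1 back (0.0581, 0.059 and 0.0514). Without replicate 3 of P5 back the genes called were instead Myl1 (2.76), Tnnc2 (2.35), Acta1 (2.30) and Myh1 (1.57), all higher in tail. Taking both sites together, Pvalb was lower at P5 (-0.26, SE 0.07, adjusted p = 0.0468), which is 1 of 46 against 6.71% of all genes, and it was called in 3 of the 12 fits that left out an array. Without replicate 3 of P5 back, 9 genes were called as lower at P5: Acta1 (-2.54), Tnnc2 (-2.59), Tnnt3 (-2.04), Smpx (-1.61), Myoz2 (-1.46), Mybpc1 (-1.42), Ttn (-1.10), Tnni2 (-0.85) and Trdn (-0.61). The interaction of site and age was called for none of the 46 genes in limma, against 2.87% of all genes, although 11 had an unadjusted p under 0.05. The lowest adjusted p was 0.098, for Ckmt2.

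Since the median of the 46 genes differed between arrays, the genes were also compared at an equal median of the 46 genes, with that median of each array as a covariate in the fit. At equal median, arrays labelled tail had more of 7 genes and less of 5 than arrays labelled back, 12 of 46 against 7.37% of all genes. The genes that were higher were Myl1 (1.64, SE 0.44, limma adjusted p = 0.0414), Acta1 (1.37, adjusted p = 0.0332), Tnnc2 (1.31, adjusted p just under 0.05), Myh1 (0.94, adjusted p = 0.0368), Tnnt3 (0.90, adjusted p = 0.042), Mybpc2 (0.72, adjusted p = 0.0191) and Des (0.42, adjusted p = 0.0301), the intermediate filament desmin. Those that were lower were Myh7 (-1.31, SE 0.28, adjusted p = 0.0138), Tnnc1 (-1.18, adjusted p = 0.00549), Mybpc1 (-0.96, adjusted p = 0.00131), Tnni1 (-0.47, adjusted p = 0.0444) and Tcap (-0.43, adjusted p = 0.0185).

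By fibre type, 13 of 14 fast genes were higher and 8 of 9 slow genes were lower in arrays labelled tail at equal median of both ages, and the genes called included 5 fast genes that were higher and 4 slow genes that were lower. The covariate is made from the same genes, so a gain of some is bound to a loss of others. Without replicate 3 of P5 back, 3 genes were called: Myh1, Mybpc1 and Tnnc1. The other fits that left out 1 array called 4 to 12 genes, and Mybpc1 and Tnnc1 were called in each of the 12 fits. With the median of 43 other muscle genes as the covariate, 11 genes were called as higher and 1 as lower. The slow genes then no longer passed, at -0.83 for Myh7 (adjusted p = 0.0551), -0.62 for Tnnc1 (adjusted p = 0.117), -0.62 for Mybpc1 (adjusted p = 0.15) and -0.30 for Tnni1 (adjusted p = 0.202). Between ages, at equal median, no gene was called in limma, against 3.61% of all genes, and 6 had an unadjusted p under 0.05.

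**Figure D4:**
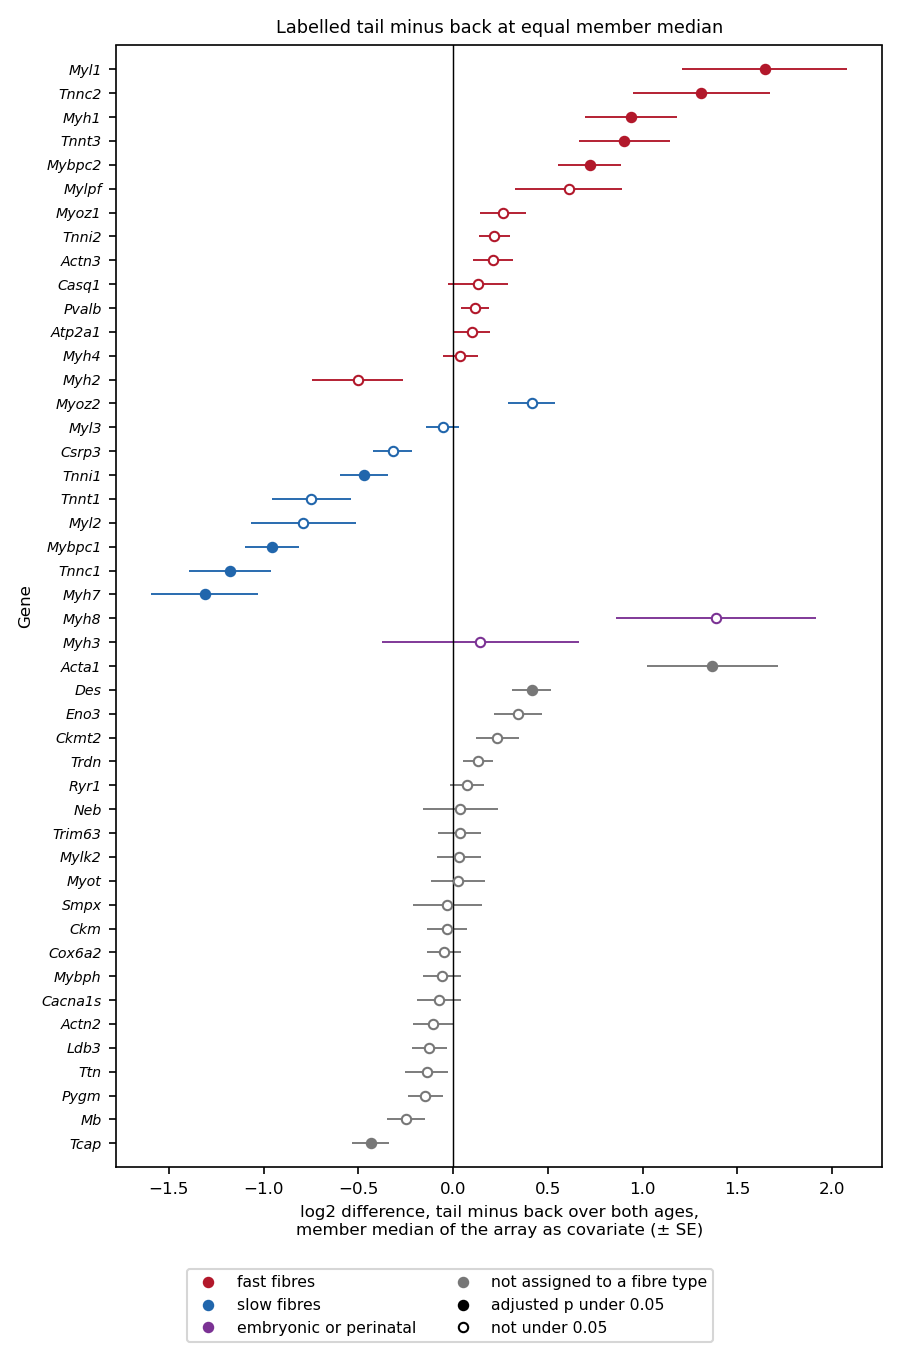
Log2 difference, arrays labelled tail minus arrays labelled back over both ages, with its standard error, for each of the 46 genes after the array's median of these genes was taken into account; filled points passed the adjusted threshold. Fast genes lie mostly right of 0, up to 1.64 for Myl1, and slow genes mostly left, down to -1.31 for Myh7.

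The pairs of fast and slow isoforms give the same contrast within each array. Myh1 minus Myh7 was 3.44, 2.10 and 1.42 in P1 tail, against -2.24, -0.35 and -2.34 in P1 back. Tnnc2 minus Tnnc1 was 0.89, 1.03 and 0.99 in P1 tail, against -1.70, -2.65 and -1.88 in P1 back, and Tnnt3 minus Tnnt1 was 1.82, 1.27 and 0.92, against -0.83, -1.56 and -1.03. All P1 tail arrays were above all P1 back arrays for these differences, and for Tnni2 minus Tnni1 (0.62 to 1.39, against -0.61 to -0.34). At P5 the order was not kept throughout: Myh1 minus Myh7 was -0.23, 0.98 and -0.14 in P5 tail, against -0.08, -0.64 and -0.30 in P5 back, with overlap. Each difference is between centred values, so its sign against 0 carries no amount of one isoform over the other.

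Among the genes of calcium and energy supply, the ranges differed widely. Calcium handling genes Ryr1 (the calcium release channel of the store) and Trdn (triadin, its partner) followed the median of the set with r of 0.94 and 0.968, and ranges of 1.40 and 1.54, while Cacna1s, the voltage sensor, spanned 0.84 with r of 0.238. Energy genes split likewise: Eno3, muscle enolase, spanned 2.66 and Ckmt2 1.79, against 0.70 for Ckm (cytosolic creatine kinase), 0.67 for Mb and 0.83 for Cox6a2, a muscle subunit of cytochrome oxidase. Of the 46 genes, 9 spanned less than 1. Among Z-disc genes, Actn2, Myot, Myoz2, Ldb3 and Smpx followed the median with r above 0.9, and the elastic giants Ttn and Neb had r of 0.959 and 0.683.

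Across the arrays, muscle genes outside the list gave a weaker form of the pattern. The median of 43 other skeletal muscle genes ranged over the arrays between -0.26 and 0.24 and followed the median of the 46 contractile genes (r = 0.906). Their median difference between P1 tail and P1 back was 0.04, against 0.45 for the 46 genes, so the site difference at P1 was hardly seen in this list. Among the 43, Dmd (dystrophin) alone was called between the sites at P1, 0.44 higher in P1 tail with a limma adjusted p of 0.0359. Actc1, the actin of heart and fetal skeletal muscle, was at -1.28, -1.57 and -1.75 in P5 tail, -1.69, -1.72 and 2.03 in P5 back, 3.06, 1.39 and 1.28 in P1 tail, and 2.28, -1.49 and 2.95 in P1 back. Actc1 was lower in all P5 tail than in all P1 tail arrays (-3.45, SE 1.10, adjusted p = 0.0947). Of 14 myogenic factors and fetal receptor subunits, Mef2c, a factor also used outside muscle, was called as higher in tail at P1 (0.81) and at P5 (0.56). Over both ages 2 of the 14 were called as higher in tail, Mef2c (0.684) and Pax3 (0.305), against 7.39% of all genes. Most of the 14 followed the median of the contractile genes loosely, with a median r of 0.367. Of them, 5 exceeded 0.5 and 2 exceeded 0.8. Myog, which drives muscle differentiation, was among the closer ones and followed Mylpf with r of 0.879. Across all genes outside the set, those most like its median over the 12 arrays were Tceal7 (r = 0.963), Hjv (0.962), Atp1b4 (0.944), Myom1 (0.935), Pgam2 (0.93), Itgb1bp2 (0.927), Apobec2 (0.924), Txlnb (0.916), Myf6 (0.913) and Klhl41 (0.905).

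Genes of other tissues moved with parts of the muscle pattern. Over the 12 arrays, the median of 6 endothelium genes followed that of the contractile genes with r of 0.539. It was highest in replicate 4 of P1 tail (0.643). For 10 fibroblast genes r was 0.53. It was lower for adipocyte (0.416), tendon (0.385) and cartilage genes (0.28). Negative values were found for keratinocyte (-0.421), erythroid (-0.359), smooth muscle (-0.22), Schwann (-0.156) and brown fat genes (-0.032). The median of 14 cartilage genes was 2.01, 0.05 and 1.48 in P1 back and 0.85 in replicate 3 of P5 back, against -0.14, -0.08 and -0.18 in P1 tail, and that of 7 tendon genes was 2.17, 0.06 and 1.64 in P1 back and 1.85 in replicate 3 of P5 back, against -0.15, -0.13 and -0.52 in P1 tail. The 3 arrays high in cartilage and tendon genes were also high in slow muscle genes, with a median of the 9 slow genes of 1.30 in replicate 3 of P5 back and of 0.77 and 0.80 in replicates 1 and 6 of P1 back. Replicate 4 of P1 tail was high in slow genes too (1.02) and not in cartilage or tendon genes. Col2a1, the main cartilage collagen, correlated over the 12 arrays at 0.913 with slow Myh7, 0.579 with slow Mybpc1, 0.611 with fast Myh2 and -0.186 with fast Myh1. The median of 8 adipocyte genes was 1.77, 1.19 and 1.58 in P1 tail, against -0.90, -0.84 and -0.85 in P1 back, and Adipoq and Mybpc2 correlated at 0.732. The median of 10 keratinocyte genes was lowest in replicate 4 of P1 tail (-1.64) and that of 9 smooth muscle genes stayed between -0.18 and 0.12 in 11 arrays, with 0.70 in replicate 2 of P5 tail. The part of these tissues in the muscle differences was not tested. Replicate 2 of P5 tail also had the widest spread over all probe sets (SD 0.50, against 0.23 to 0.34 in the other arrays).

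**Figure D5:**
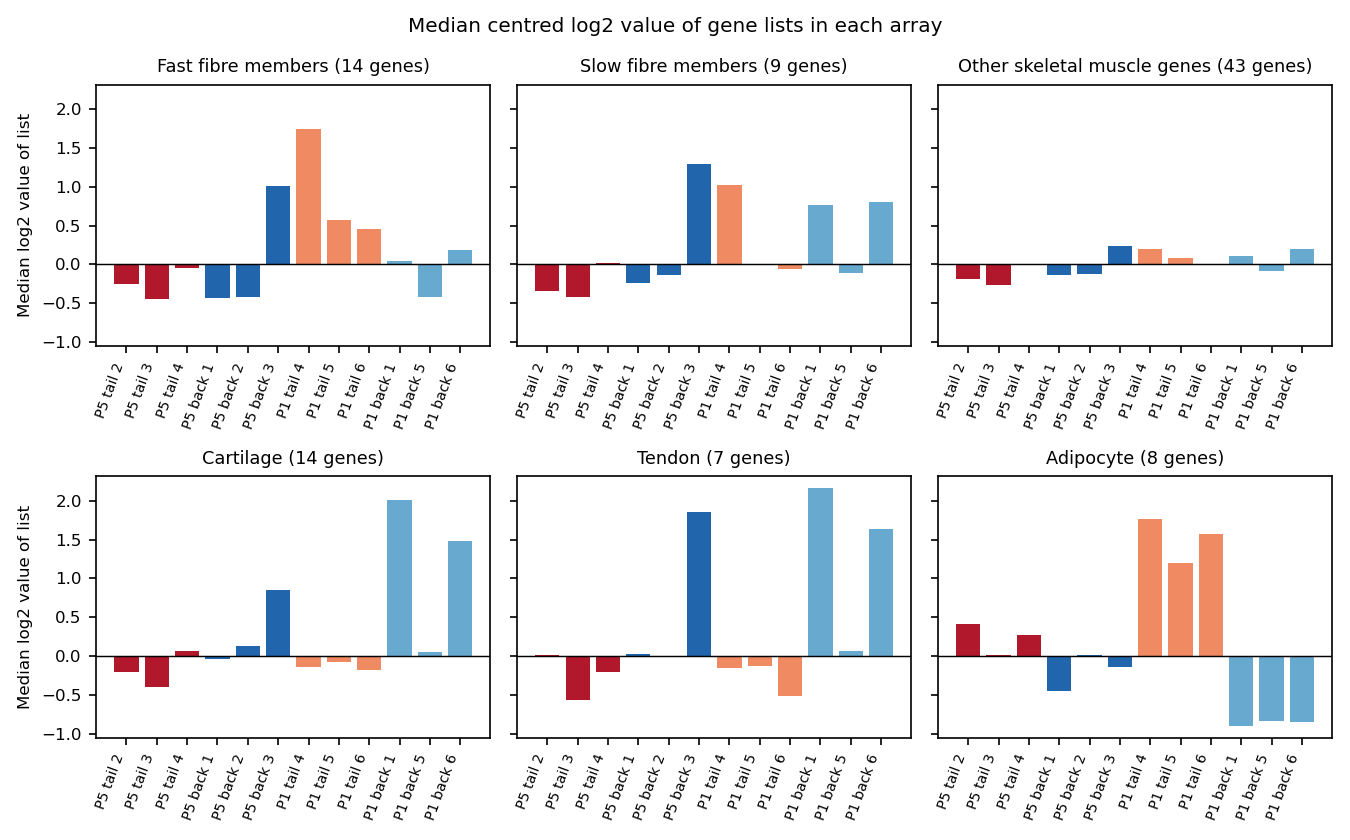
Median centred log2 value in each array, grouped as labelled (P5 tail, P5 back, P1 tail, P1 back), of the fast and slow contractile genes, 43 other skeletal muscle genes, and cartilage, tendon and adipocyte genes. Slow muscle, cartilage and tendon bars are high in replicates 1 and 6 of P1 back and replicate 3 of P5 back, and adipocyte bars are high in P1 tail. Replicate 4 of P1 tail is high for slow genes as well (1.02), and fast genes are high in P1 tail (1.75, 0.58 and 0.46) and in replicate 3 of P5 back (1.01).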

How the data were processed

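The deposited values are log2 signals of 45101 probe sets on 12 Affymetrix MG430.2A arrays, which the authors normalised by RMA in GeneSpring. In the deposited log2 values each probe set is also centred, with a median over the 12 arrays of 0 within 1e-06. Differences between arrays can be read and levels cannot. The study's filter on the 20% of genes with the lowest signal could therefore not be repeated, nor signal set against background. After 64 control probe sets were left out, 34945 of 45037 probe sets carried 1 symbol in the platform annotation (932 carried several and 9160 none here), and these were averaged into 18193 genes.

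The 12 arrays, as 4 groups, were fitted together by lmFit and eBayes of limma 3.58.1 in R 4.3.3. P-values were two-sided and adjusted by the Benjamini-Hochberg method over all genes, with a threshold of 0.05 ("called"). No further normalisation was applied. The number of arrays limits the precision. Counts at 2-fold and correlations have no test. The equal-median fit added the median of the 46 genes in each array as a covariate. Fibre types were assigned from textbook knowledge. Promoter windows are from RefSeq (GRCm38.p6). The fit was tested on simulated data with known changes. The members and the lists were chosen with earlier results of these data known. All members may be named, those called or with groups that do not overlap in full, with the 10 genes outside the set most like its median and up to 4 genes of each marker list. Alternatives were each array left out, array centring, a replicate block, robust variances, a fit of only those arrays compared, array weights, shared-sequence probe sets left out, the most variable probe set of a gene, the 20% of genes with the lowest SD left out, single probe sets, another covariate and, added after seeing the data, the pair of arrays with the highest median of these genes left out.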

Additional observations from a re-analysis of the deposited data

Results flagged for a closer look

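Ckmt2, the mitochondrial creatine kinase of muscle, differed with age in opposite directions at the 2 sites: in arrays labelled tail every P5 array lay below every P1 array, and in arrays labelled back every P5 array lay above every P1 array. Between the sites all P1 tail arrays lay above all P1 back arrays, while the P5 arrays overlapped. At P1 it was 0.96 higher in arrays labelled tail than in those labelled back on the log2 scale, and at P5 it was -0.39. Between P5 and P1 it was -0.89 in arrays labelled tail and 0.47 in arrays labelled back. Its values were 0.06, -0.25 and -0.22 in P5 tail, 0.00, 0.00 and 0.77 in P5 back, 1.49, 0.45 and 0.32 in P1 tail, and -0.30, -0.26 and -0.07 in P1 back. None of these differences was called, and the interaction of site and age (-1.36, SE 0.39) had a limma adjusted p of 0.098.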

How the results depend on the processing

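Counts of contractile genes called depended on single arrays and on the treatment of probe sets. Each array of the groups compared was left out in turn. This gave 1 gene called between tail and back at P1 in every case and 1 to 3 at P5. It gave 1 to 6 between P5 and P1 in tail and 0 in back in every case. The counts were 0 to 4 between sites over both ages, 0 to 9 between ages over both sites and 0 to 1 for the interaction. At equal median of the 46 genes they were 3 to 12 between sites and 0 to 2 between ages. At 2-fold or more they were 9 to 17 at P1, 3 to 7 at P5, 10 to 22 in tail and 0 to 13 in back. Arrays outside the groups compared also changed the calls, through the shared spread. A fit without replicate 3 of P5 back called Mybpc2 and Myh1 at P1. In tail the same fit called Actn3, Atp2a1, Mybpc1, Mybpc2, Myh1, Tnni2, Tnnt3 and Trdn between ages. With array weights 5 genes were called at P1 (Mybpc2, Myh1, Actn3, Ckmt2 and Myh4, all higher in P1 tail), 0 between ages in tail, 1 between sites over both ages and 0 between ages over both sites. Without probe sets of shared-sequence suffix the counts were 0 at P5 (Tcap has no other probe set and was not in the fit), 1 between sites over both ages, 0 between ages over both sites and 5 at equal median between sites. With the most variable probe set of a gene they were 2 at P1, 3 between ages in tail and 0 over both sites. Without the 20% of genes with the lowest SD they were 3 at P1, 2 at P5 and 1 at equal median between ages. With only the arrays compared the counts were 1 at P1 (Myh1), 1 at P5 (Tcap) and 7 between ages in tail, of which Tnni2 was shared with the 5 of the fit of all arrays. Over single probe sets they were 2 between ages in tail and 0 over both sites. Without replicate 4 of P1 tail and replicate 3 of P5 back they were 3 at P1, 0 at P5, 2 between ages in tail and 5 over both sites, and 7 at P5, 10 in tail and 13 in back at 2-fold. The replicate numbers are not stated to mark shared mice. With the replicate number as a block the counts were 2 at P1 (Mybpc2 and Myh1), 2 at P5 (Tcap and Mybpc1), 6 between ages in tail (Mybpc2, Atp2a1, Casq1, Eno3, Myh1 and Myoz1, so that Mybpc1, Tnni2, Actn3 and Pvalb were lost), 1 between sites over both ages (Tcap), 1 between ages over both sites (Casq1) and 4 for the interaction (Casq1, Myh1, Myoz1 and Neb), and 12 at equal median between sites. Of 410 refits of single called genes 254 stayed past the threshold and 156 did not, and none changed sign. The causes of these changes were not tested. With 3 arrays a group and centred values, signal over background cannot limit or support any of them.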

Other observations

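Probe sets of one contractile gene did not always move together. Of 14 genes with more than 1 probe set, 8 had a pair that correlated below 0.5 over the 12 arrays. For Trdn, with 6 probe sets, the lowest correlation of a pair was -0.119 and the ranges ran from 0.54 to 3.60. For Ttn, also with 6, they ran from 0.62 to 3.85, and for Tnni2, with 3, the lowest correlation was -0.263. The 3 probe sets of Mybpc1, the slow myosin-binding protein, instead correlated at 0.956 or more. For Trdn, Ttn, Tnni2 and Myh1 the mean over probe sets therefore gives smaller differences than the most variable probe set. Which of them is nearer the size of the change was not tested.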
